A study of Mus musculus with 32 samples.

Results

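The genes described here are 10 genes of cellular iron uptake, storage and export. They were chosen by name, with earlier results of these data known, and all 10 had a row among the 11818 genes of the count table. For uptake these are Trf (transferrin), Tfrc (transferrin receptor) and Slc11a2 (the iron transporter DMT1), and for storage Fth1 and Ftl1 (the heavy and light chains of ferritin). For export they are Slc40a1 (ferroportin) and Cp (ceruloplasmin). Hmox1 (heme oxygenase), Ireb2 (iron regulatory protein 2) and Aco1 (cytosolic aconitase, also iron regulatory protein 1) complete the set. Lung Epcam+ cells (CD45-/CD31-/Epcam+) of C57BL/6J mice aged 8 to 14 weeks were grown in Matrigel with CCL206 fibroblasts, an established line from mouse lung. In every group these had been kept from dividing with mitomycin C. The organoid cultures were treated for 72 h with vehicle, with OGN at 10 µg/mL, with EVs at 1000000000 particles in each mL, or with SFs at 30 µg/mL. EVs (extracellular vesicles) and SFs (soluble factors) were prepared from MRC5 human lung fibroblasts, and OGN is human recombinant osteoglycin, a small proteoglycan. The cells were then separated with Epcam (CD326) microbeads into an Epcam+ and a CCL206 fraction. Each of 4 mice contributed to all 4 treatments, which gave 8 groups of 4 libraries and 32 libraries in all. CCL206 is 1 cell line, so the 4 CCL206 libraries of a group differ in the mouse whose epithelium grew beside them and in the culture, not in the fibroblast donor. According to the methods of the study, the organoid medium was supplemented with insulin-transferrin-selenium, so all groups had transferrin protein in the medium.

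Iron reaches most cells bound to transferrin, which the transferrin receptor carries into endosomes, where DMT1 passes the reduced iron into the cytosol. Iron that is not used is stored in ferritin cages built of heavy and light chains. It leaves the cell only through ferroportin, and ceruloplasmin, a copper enzyme, oxidizes it so that transferrin can bind it. In the lung these proteins are known to limit free iron, which feeds oxidant chemistry at the air surface. Both iron regulatory proteins bind stem-loops called iron-responsive elements (IREs). An IRE in the 3' UTR of Tfrc is known to protect the mRNA from decay when iron is scarce, whereas an IRE in the 5' UTR of the ferritins and ferroportin holds back translation and leaves the mRNA level largely as it is. mRNA counts therefore read only part of this control.

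The IRE-like sites of the member transcripts are shown because the 4 transcripts that carry them fall into 2 classes by where the site lies, after the coding sequence in Tfrc and before it in the others. Canonical GENCODE transcripts (vM39, GRCm39) were searched on the transcript strand for a C, any 5 bases, the loop CAGTGN and 5 bases that pair with the 5 before the loop, with G paired to T allowed. Capitals mark the 6 loop letters CAGTGN, and every site shown has 5 of 5 pairs.
Tfrc site 1: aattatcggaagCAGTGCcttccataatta
Tfrc site 2: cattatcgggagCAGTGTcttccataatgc
Tfrc site 3: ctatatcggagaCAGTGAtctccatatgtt
Tfrc site 4: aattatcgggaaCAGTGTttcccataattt
Slc40a1: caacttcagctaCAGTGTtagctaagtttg
Fth1: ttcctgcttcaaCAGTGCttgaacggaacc
Ftl1: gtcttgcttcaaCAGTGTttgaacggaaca
The 4 Tfrc sites lie in the 3' UTR, in exon 19 of 19, on the plus strand at chr16:32450037-32450066, chr16:32450416-32450445, chr16:32450481-32450510 and chr16:32450528-32450557. The Slc40a1 site lies in the 5' UTR in exon 1, on the minus strand at chr1:45964624-45964653. The ferritin sites also lie in the 5' UTR in exon 1, that of Fth1 on the plus strand at chr19:9960096-9960125 and that of Ftl1 on the minus strand at chr7:45109202-45109231. Of 21770 canonical coding transcripts, 289 (1.33%) held at least 1 such site and 5 (0.023%) held at least 2. The canonical transcripts of Cp, Trf, Slc11a2, Hmox1, Ireb2 and Aco1 held no match to these letters. Other transcripts of these genes were not searched. A site in an alternative end of a gene, Slc11a2 included, would therefore be missed, and the search does not show that these genes lack an IRE.

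The libraries held between 1805914 and 17675454 counts, with a median of 5901652. Levels are given as CPM, counts per 1000000 of the library's TMM-scaled total, with the scaling taken over the 32 libraries. A gene is listed only if no library had a count of 0 for it. The sorted fractions carried each other's transcripts. The 6 epithelial markers, all listed (Epcam, Cdh1, Krt8, Krt18, Krt19, Cldn4), summed to between 154 and 660 CPM in CCL206 libraries and to between 4638 and 7003 CPM in Epcam+ libraries. The 10 markers of AT2 cells, the alveolar epithelial cells that make surfactant, were all listed and summed to between 1597 and 4841 CPM in CCL206 libraries and to between 9552 and 15999 CPM in Epcam+ libraries. The 9 listed fibroblast markers of 10 summed to between 2052 and 3745 CPM in Epcam+ libraries and to between 7834 and 13270 CPM in CCL206 libraries. Of 16 macrophage markers only Cd68 and Cd74 were listed and Ptprc, Csf1r and Marco were not. No erythroid gene of 6 was listed, and of 6 endothelial markers only Vwf was. The 4 CCL206 libraries of the EV-treated cultures, most of all those of mice 2 and 4, showed a trend with transcript length. In these, the deviation of a gene from the vehicle-treated libraries fell with transcript length (Spearman's rho across genes -0.289, -0.585, -0.364 and -0.625 in mice 1 to 4, against -0.14 to 0.19 in the vehicle-treated libraries themselves). The SF-treated CCL206 library of mouse 1, at -0.244, came near the EV-treated one of the same mouse, and the other SF- and OGN-treated CCL206 libraries lay between -0.156 and 0.113. Epcam+ libraries varied as well, with rho of -0.206 to 0.203 with vehicle and -0.0226 to 0.228 with EVs. Among them SF-treated libraries lay between -0.0827 and 0.33 and OGN-treated ones between -0.288 (mouse 4) and 0.162. The ferritin transcripts are the shortest of the set, with 929 nt for Fth1 and 969 nt for Ftl1 against 1577 to 5873 nt for the others.

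With vehicle, ferritin transcripts dominated the set in both populations. Per kb of transcript, Ftl1 stood at 2446 ± 316 CPM (SD, n = 4) in Epcam+ cells, followed by Fth1 at 1706 ± 271, Trf at 714 ± 97.5 and Cp at 201 ± 19.3. Tfrc (86.5 ± 11.8) and Hmox1 (70.8 ± 11.6) overlapped, and Aco1 (35.6 ± 2.37), Slc11a2 (23.4 ± 1.22), Ireb2 (18.2 ± 1.34) and Slc40a1 (3.45 ± 0.43) followed without overlap. In CCL206 fibroblasts Fth1 came first at 3541 ± 288 CPM per kb, then Ftl1 at 2164 ± 127, Cp at 314 ± 21.8, Hmox1 at 127 ± 4.39, Slc11a2 at 32.8 ± 4.14 and Aco1 at 26.1 ± 1.9. The last 4 of the fibroblast order, Ireb2 (19.4 ± 1.55), Tfrc (16.2 ± 4.5), Trf (13.7 ± 6.17) and Slc40a1 (13.5 ± 2.48), overlapped with their neighbours. The ferritin chains thus took opposite orders in the epithelium and the fibroblasts. Fth1 and Ftl1 have near-identical processed copies in the mouse genome, so their counts are uncertain where reads could be split among copies.

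The populations differed in 8 of the 10 genes with vehicle, where 71.4% of all genes tested were called (edgeR quasi-likelihood test on the 8 vehicle-treated libraries with mouse in the model, Benjamini-Hochberg adjusted p under 0.05, as in all comparisons below). Fewer cells of a type and less RNA per cell cannot be told apart in these bulk libraries. Trf, Tfrc and Aco1 were higher in Epcam+ cells. Trf read 1750, 1977, 2091 and 1526 CPM in Epcam+ cells of mice 1 to 4 and 51.8, 27.1, 44.9 and 17.3 CPM in the CCL206 fractions of the same cultures, a log2 difference of 5.78 (SE 0.21, adjusted p = 4.7e-09). Trf in the fibroblast fraction was 1.9% ± 0.827 (SD, n = 4) of its epithelial level, against a median of 5.29% for the 6 epithelial markers, and the Epcam gene itself read 3.97% ± 1.14. Relative to its epithelial level, Trf in the fibroblast libraries was thus below each of the 6 markers, the lowest of which read 3.84%. Tfrc was higher by 2.44 in log2 (SE 0.11, adjusted p = 1.0e-08) and Aco1 by 0.45 (SE 0.07, adjusted p = 0.000267). Tfrc in the fibroblast fraction was 18.6% ± 3.74 of its epithelial level, above all 6 epithelial markers (highest 10.3%) and below the median of 22.7% for the 10 AT2 markers (9.49% to 121%). Trf lay below the lowest of both lists. Slc40a1, Cp, Hmox1, Fth1 and Slc11a2 were higher in the fibroblasts, so the uptake genes did not all lie on one side. The log2 difference was -1.98 for Slc40a1 (SE 0.13), -1.06 for Fth1 (SE 0.07), -0.86 for Hmox1 (SE 0.08), -0.65 for Cp (SE 0.07) and -0.49 for Slc11a2 (SE 0.10), with a highest adjusted p of 0.00124. Slc40a1 in the Epcam+ fraction was 26% ± 3.27 of its fibroblast level, near the median of 22.4% for the 9 fibroblast markers. Ftl1 (0.17, adjusted p = 0.0521) and Ireb2 (-0.10, adjusted p = 0.285) did not pass the test.

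**Figure D1:**
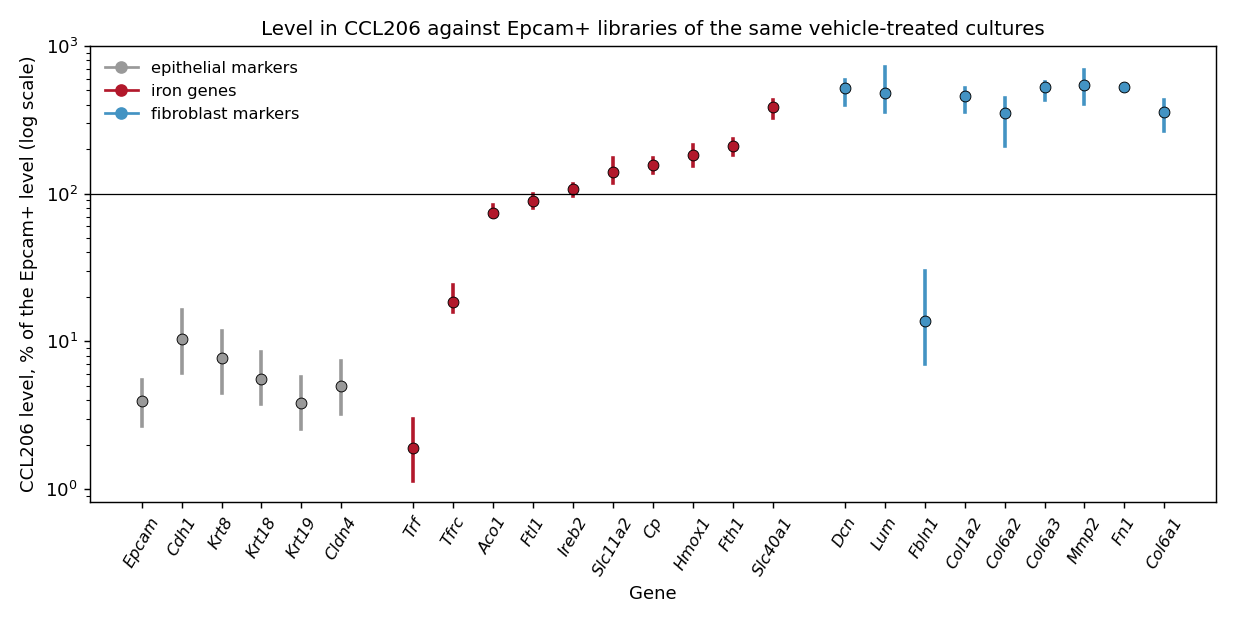
Level in the CCL206 fraction as a percent of the level in the Epcam+ fraction of the same vehicle-treated cultures (vertical axis, log scale) for 6 epithelial markers, the 10 iron genes and 9 fibroblast markers (horizontal axis). Points are means and lines span the lowest to the highest of 4 cultures. Trf, at a mean of 1.9%, sits below the epithelial markers, and Slc40a1, at 389%, lies close to the fibroblast markers, of which Fbln1 alone was higher in Epcam+ libraries.

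Against vehicle, the same 4 genes were called with OGN in both populations, Cp, Trf and Slc11a2 upwards and Slc40a1 downwards. The fractions come from the same cultures and carry each other's transcripts, which is taken up below for Cp, Slc11a2 and Slc40a1 in Epcam+ cells and for Trf in fibroblasts. Trf in the fibroblast fraction was 1.9% of its epithelial level with vehicle and 4.11% with OGN, below each of the 6 epithelial markers in both. Its call there is therefore not evidence of a change within the fibroblasts themselves. Of the 4 epithelial calls only that of Cp was kept whichever mouse was left out. In Epcam+ cells these were 4 of 10 members where 2.7% of the 11716 genes tested were called, and in fibroblasts 4 of 10 where 4.56% of 11689 were called. Because the set was chosen with earlier results of these data known, such counts are descriptive and not an independent test of the set. EVs changed 1 member in Epcam+ cells (0.888% of all genes called) and 6 in fibroblasts (36% called). SFs changed none in Epcam+ cells (0.23% called; 913 genes with an unadjusted p under 0.05) or in fibroblasts (0.0599% called; 621 genes with an unadjusted p under 0.05). With DESeq2, 1 member was called with SFs in each population (54 genes in all in Epcam+ cells and 32 in fibroblasts). Between OGN and vehicle 3 members did not overlap in Epcam+ cells, against 6.06% of all genes tested, and 5 in fibroblasts, against 16.4%. With EVs these were 1 (4.74%) and 2 (23.5%), and with SFs 1 (3.53%) and 1 (7.02%). The median log2 fold change of the 10 genes with OGN was 0.07 in Epcam+ cells and 0.26 in fibroblasts, against 0.00 and -0.01 over all genes. In Epcam+ cells the 6 members that were not called lay between -0.13 and 0.16. In fibroblasts they lay between 0.02 and 0.33. With the EV-treated libraries left out of the fit Tfrc, Fth1 and Hmox1 were called as well, which made 7 of 10. That fit called 1770 of 11688 genes in all.

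**Figure D2:**
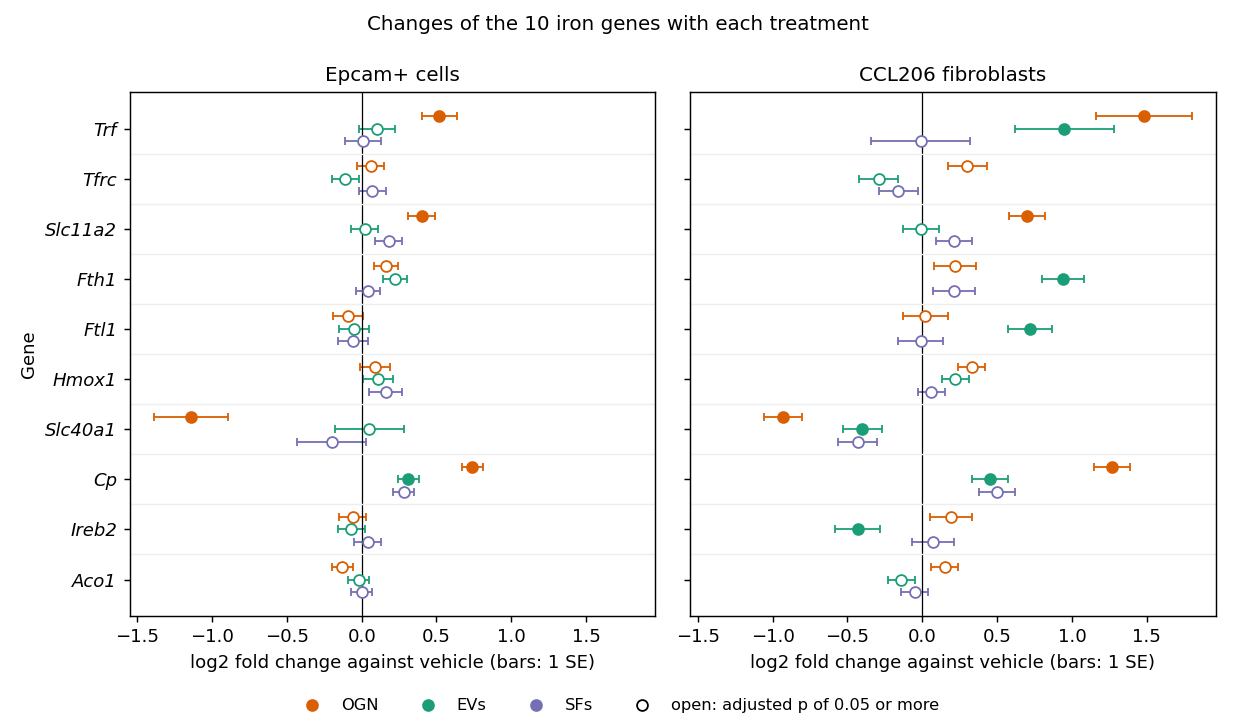
Log2 fold change against vehicle (horizontal axis) of the 10 iron genes (vertical axis) with OGN, EVs and SFs in Epcam+ cells and CCL206 fibroblasts, with bars of 1 SE and filled points for an adjusted p under 0.05. With OGN the filled points are Trf, Slc11a2, Slc40a1 and Cp in both panels. With EVs Fth1 and Ftl1 stand at 0.94 and 0.72 in fibroblasts (filled) and at 0.22 and -0.05 in Epcam+ cells (open).

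Cp, the ferroxidase that acts beside the exporter, gave the steadiest change of the set. In Epcam+ cells it read 763, 810, 950 and 820 CPM with vehicle and 1339, 1489, 1443 and 1291 CPM with OGN in mice 1 to 4. Every OGN-treated library lay above every vehicle-treated one. The log2 fold change was 0.74 (SE 0.07, adjusted p = 6.3e-07). In fibroblasts Cp read 1250, 1241, 1301 and 1438 CPM with vehicle and 3127, 3296, 2985 and 3217 CPM with OGN, a rise of 1.27 in log2 (SE 0.12, adjusted p = 7.7e-06). These groups did not overlap either. Cp kept its call with OGN under all 13 alternative settings with a test in Epcam+ cells (0.70 to 0.79) and all 14 in fibroblasts (1.22 to 1.45). The fibroblast change exceeded the epithelial one by 0.53 (SE 0.14), with an adjusted p of 0.0955 for the interaction of treatment and population.

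Because the Epcam+ fraction held fibroblast transcripts, the epithelial Cp level was also computed after removing, in each culture, the median fibroblast-marker share of the CCL206 level, a setting chosen after the values had been seen. That share averaged 21.5% with vehicle and 19.1% with OGN. What was left read 513, 572, 704 and 417 CPM with vehicle and 679, 944, 829 and 701 CPM with OGN. It was higher with OGN in 4 of 4 mice, with a mean log2 ratio of 0.53 ± 0.25 (SD), and the groups then overlapped. Slc11a2 treated in the same way gave 0.37 ± 0.39, higher in 3 of 4 mice.

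EVs and SFs moved Cp by smaller amounts. With EVs, Epcam+ cells read 976, 1009, 1184 and 1015 CPM, all above the vehicle-treated libraries, and the log2 fold change was 0.31 (SE 0.07, adjusted p = 0.035). This call was lost without mouse 1 (adjusted p = 0.264), mouse 2 (0.118) or mouse 3 (0.272). The fibroblast-marker share was 35.3% in these EV-treated cultures, and Cp less that share was lower than with vehicle in all 4 mice (mean log2 ratio -0.36 ± 0.31). In mice 1 to 4 the share was 27.5%, 39.4%, 28% and 46.3%, highest where the CCL206 libraries had the strongest length trend. The part of that trend in the share, and so in this value for Cp, was not tested. With SFs the Epcam+ value was 0.28 (SE 0.07, adjusted p = 0.148), which became a mean ratio of 0.03 ± 0.11 less the share. In fibroblasts Cp rose with EVs by 0.45 (SE 0.12, adjusted p = 0.0129; 2026, 1730, 1978 and 1391 CPM), and the value for mouse 4 fell inside the vehicle range. Without mouse 2 (adjusted p = 0.106) or mouse 3 (0.0634) that call was lost, and without the EV-treated libraries of mice 2 and 4 it was 0.62 (adjusted p = 0.000335). With SFs the fibroblast libraries read 1682, 1693, 2077 and 1963 CPM, above all 4 vehicle-treated libraries, and the log2 fold change was 0.50 (SE 0.12, adjusted p = 0.389). With the EV-treated libraries left out of the fit, the SF value was 0.50 with an adjusted p of 0.000219. OGN exceeded EVs and SFs in both populations, by 0.43 and 0.46 in Epcam+ cells and by 0.82 and 0.77 in fibroblasts (highest adjusted p 0.0019). Of these 4 calls, that against SFs in fibroblasts was lost without mouse 2 (0.71, adjusted p = 0.0812).

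Slc40a1, the only known cellular exporter of iron, was the member that fell with OGN. Fibroblasts read 45.2, 35.7, 49.5 and 56.2 CPM with vehicle and 17.7, 23.2, 28.8 and 28.9 CPM with OGN. The groups did not overlap, and all 4 mice fell, by 0.62 to 1.36 on the log2 scale within a mouse. The fold change was -0.93 (SE 0.13, adjusted p = 0.000274), and it kept its call in 14 of 14 alternatives (-1.03 to -0.79). In Epcam+ cells Slc40a1 was scarce, at 10.5, 10.9, 12.7 and 13.7 CPM with vehicle and 5.99, 5.72, 4.67 and 5.11 CPM with OGN, which rests on 19 to 178 counts per library. The groups again did not overlap, and the log2 fold change was -1.14 (SE 0.25, adjusted p = 0.00889). Without mouse 1 (adjusted p = 0.0605) or mouse 3 (0.139) the epithelial change missed the threshold at -1.27 and -1.02. By the interaction test the change in fibroblasts differed from that in Epcam+ cells by 0.20 (SE 0.25, adjusted p = 1, interval about -0.29 to 0.69).

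Since Slc40a1 in Epcam+ libraries was close to the share seen for fibroblast markers, its level was also read against those markers. Their sum lay between 2239 and 3111 CPM with vehicle and between 2052 and 2588 CPM with OGN, so it overlapped while Slc40a1 did not. Slc40a1 was 0.468%, 0.488%, 0.533% and 0.439% of the fibroblast marker sum with vehicle and 0.245%, 0.279%, 0.181% and 0.233% with OGN. With the fibroblast marker level as a covariate the fold change remained -1.14 (SE 0.26, adjusted p = 0.0164). The ratio and the covariate take account of the amount of fibroblast RNA alone. Since Slc40a1 fell in the fibroblasts as well (-0.93), they cannot tell a change in the epithelium from carried-over transcripts. Less the fibroblast-marker share of the CCL206 level, however, Slc40a1 in Epcam+ cells was 1.72 ± 2.76 CPM (SD, n = 4) with vehicle and 0.673 ± 1.68 with OGN, and both groups spanned 0.

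The other treatments gave smaller values for Slc40a1 in fibroblasts. EVs gave 25.9, 34.8, 44.4 and 37.1 CPM and a log2 fold change of -0.40 (SE 0.13, adjusted p = 0.0288), with overlap. This call was lost without mouse 1, 2 or 4 (adjusted p between 0.0748 and 0.183), and without the EV-treated libraries of mice 2 and 4 together (-0.42, adjusted p = 0.11). SFs gave -0.43 (SE 0.13, adjusted p = 0.56). The fall with OGN exceeded that with EVs by 0.53 in fibroblasts (adjusted p = 0.00791; 0.0673 without mouse 2), and against SFs the difference of -0.50 had an adjusted p of 0.0536. In Epcam+ cells EVs and SFs gave 0.05 and -0.20, with adjusted p of 0.979 and 0.888. OGN lay below EVs there by 1.19 (adjusted p = 0.00558; 0.0732 without mouse 1 and 0.0806 without mouse 3) and differed from SFs by -0.94 (adjusted p = 0.0512), where the SF library of mouse 2, the shallowest of all, held 9 counts of Slc40a1.

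**Figure D3:**
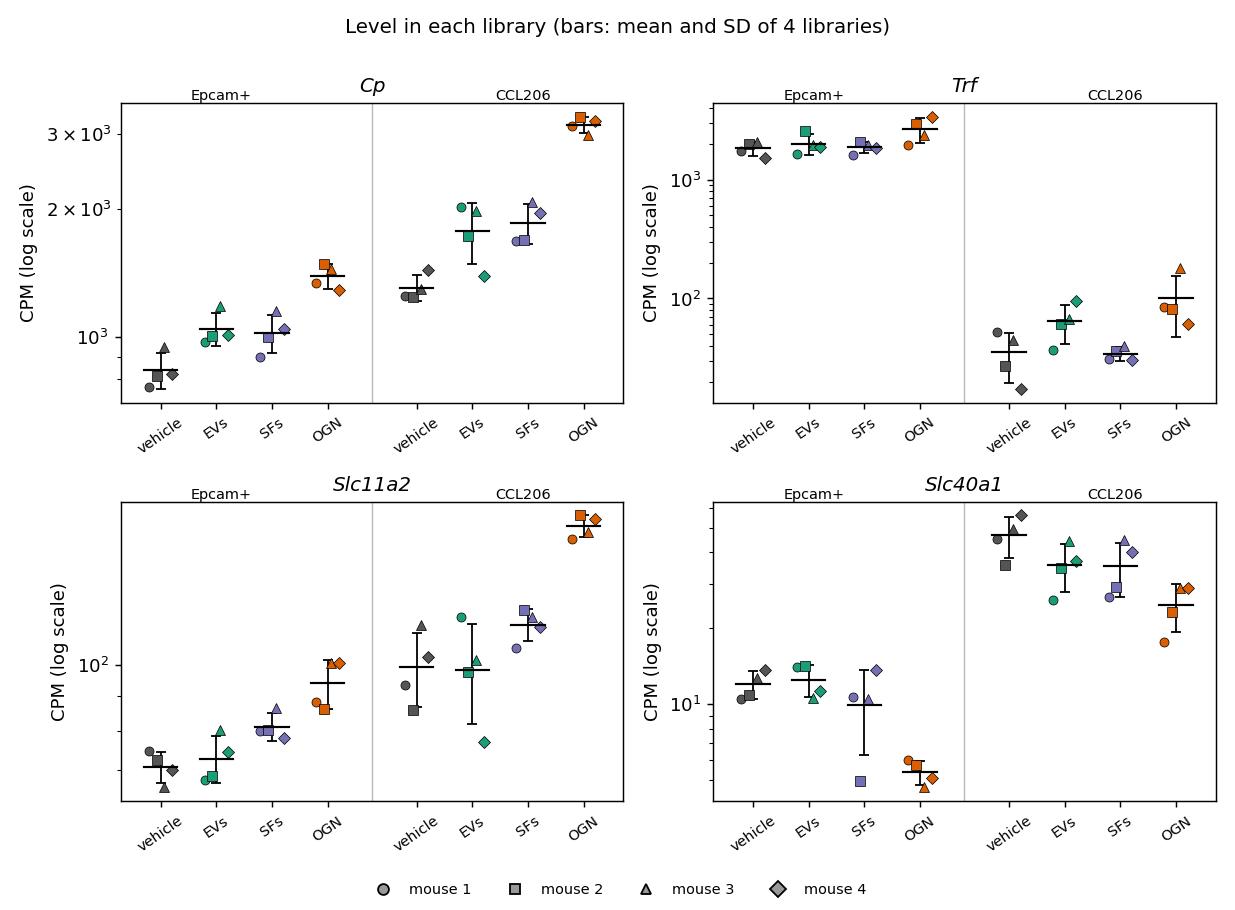
Level in CPM (vertical axis, log scale) of Cp, Trf, Slc11a2 and Slc40a1 in each of the 32 libraries, by treatment (horizontal axis) with Epcam+ cells on the left and CCL206 fibroblasts on the right of each panel. Symbols mark the mouse and bars the mean and SD of 4 libraries. OGN-treated libraries lie apart from vehicle in every panel except Trf in Epcam+ cells, where mouse 1 with OGN (1948 CPM) falls inside the vehicle range. Of all genes tested, 6.06% lay apart in this way in Epcam+ cells and 16.4% in fibroblasts.

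Slc11a2, which moves ferrous iron out of the endosome, rose with OGN. In Epcam+ cells it read 74.6, 72.4, 65.9 and 70 CPM with vehicle and 88.4, 86.1, 101 and 101 CPM with OGN. All OGN values lay above all vehicle values, with a log2 fold change of 0.40 (SE 0.09, adjusted p = 0.00999). Without mouse 3 (adjusted p = 0.148) or mouse 4 (0.0626) that call was lost at 0.34 and 0.36. Fibroblasts read 93.6, 85.8, 115 and 103 CPM with vehicle and 154, 167, 158 and 165 CPM with OGN, a rise of 0.70 (SE 0.12, adjusted p = 0.00148). These groups lay well apart, and the value without mouse 2 was 0.62 (adjusted p = 0.0541). EVs and SFs passed no test for Slc11a2. Their values were 0.02 and 0.18 in Epcam+ cells, and -0.01 and 0.21 in fibroblasts. OGN exceeded EVs by 0.38 in Epcam+ cells (adjusted p = 0.0124) and by 0.71 in fibroblasts (adjusted p = 0.00102). Against SFs the difference passed in fibroblasts (0.49, adjusted p = 0.0325) and not in Epcam+ cells (0.22, adjusted p = 0.226). The fibroblast call against SFs was lost whichever mouse was left out (adjusted p between 0.0654 and 0.187). The epithelial call against EVs was lost without mouse 1 (adjusted p = 0.11), mouse 3 (0.0866) or mouse 4 (0.0787).

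Trf, the carrier of iron in plasma and lung lining fluid, rose with OGN in the epithelium by 0.52 in log2 (SE 0.12, adjusted p = 0.0137). The OGN-treated Epcam+ libraries read 1948, 2953, 2373 and 3383 CPM in mice 1 to 4, against 1750, 1977, 2091 and 1526 CPM with vehicle. All 4 mice were higher with OGN, but the groups overlapped. Mouse 4 contributed most, and without it the value was 0.29 (adjusted p = 0.0879). Without mouse 2 the adjusted p was 0.0945, and in the model without the mouse term it was 0.0862. The summed AT2 markers ranged over 11963 to 15107 CPM with OGN and 9552 to 15999 CPM with vehicle, so they overlapped as well. Scgb1a1, the 1 listed of 4 markers of secretory airway cells, read 698 to 1261 CPM with OGN and 1664 to 2044 CPM with vehicle, without overlap. It was lower than with vehicle also with EVs (798 to 1387 CPM) and SFs (915 to 1655 CPM). The part of this shift in the epithelial changes was not tested. EVs (0.10, adjusted p = 0.878) and SFs (0.01, adjusted p = 0.993) gave values near 0 for epithelial Trf. OGN exceeded SFs by 0.51 (adjusted p = 0.0242) and differed from EVs by 0.42 (adjusted p = 0.0638). The call against SFs was lost in the model without the mouse term (adjusted p = 0.129) and without mouse 1 (0.0629), mouse 2 (0.0926) or mouse 3 (0.0672). Without mouse 4 the value was 0.35 and the call was kept.

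In the fibroblast fraction Trf read 84.1, 81.5, 180 and 60.5 CPM with OGN, all above the vehicle-treated libraries (17.3 to 51.8 CPM). The log2 fold change was 1.48 (SE 0.32, adjusted p = 0.0105), and without mouse 2 (adjusted p = 0.129) or mouse 3 (0.123) it missed the threshold. Epithelial markers also read higher there, with sums of 344 to 660 CPM with OGN against 202 to 510 CPM with vehicle. Trf was 10.5% ± 2.38 (SD, n = 4) of the epithelial marker sum of the fibroblast libraries with vehicle and 20.9% ± 5.16 with OGN, and these groups did not overlap. Trf itself was higher in the Epcam+ cells of the OGN-treated cultures, and relative to that level it read 4.11% ± 2.53 in the fibroblast fraction with OGN, still below each of the 6 epithelial markers (5.5% to 12.7%). With the epithelial marker level as a covariate, chosen after the values had been seen, the change was 0.96 (SE 0.18, adjusted p = 0.00105). Neither this covariate nor the ratio to the marker sum takes account of the rise of Trf in the epithelium (0.52). EVs also raised Trf in this fraction (36.9, 61.3, 67.6 and 94.6 CPM, log2 fold change 0.95, SE 0.33, adjusted p = 0.0353). That call was lost with the same covariate (0.31, adjusted p = 0.301), without the EV-treated libraries of mice 2 and 4 (0.24, adjusted p = 0.608), and without mouse 2, 3 or 4 alone (adjusted p between 0.0508 and 0.301, lowest value 0.41). SFs left Trf at 30.9, 36.1, 40.1 and 30.3 CPM, inside the vehicle range.

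Tfrc, the receptor that takes up loaded transferrin, passed no test against vehicle. In Epcam+ cells it read 368 to 488 CPM with vehicle (median 418) and 398 to 471 CPM with OGN (median 445), and the log2 fold changes were 0.06 with OGN, -0.11 with EVs and 0.07 with SFs. The intervals of these epithelial values lay between about -0.28 and 0.24. In fibroblasts Tfrc read 109, 69.1, 80.4 and 58 CPM with vehicle and 98.1, 90.1, 110 and 83.6 CPM with OGN, a log2 fold change of 0.30 (SE 0.13, adjusted p = 0.244). Mouse 1 alone was lower with OGN. Without the EV-treated libraries in the fit the OGN value was 0.30 with an adjusted p of 0.0377. OGN and EVs differed in fibroblasts by 0.60 (SE 0.13, adjusted p = 0.00421; 0.0811 without mouse 2), with EV-treated libraries at 91.3, 45.5, 69.5 and 52.7 CPM.

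Both chains of ferritin lay close to vehicle with OGN. Fth1 gave 0.16 in Epcam+ cells (SE 0.08, adjusted p = 0.413) and 0.22 in fibroblasts (SE 0.14, adjusted p = 0.508). It was higher with OGN in 4 of 4 mice in each population, and the groups overlapped. With the EV-treated libraries left out of the fit, the fibroblast value of 0.22 had an adjusted p of 0.00698. Ftl1 gave -0.09 in Epcam+ cells (adjusted p = 0.77) and 0.02 in fibroblasts (adjusted p = 0.968). SFs gave 0.04 and 0.21 for Fth1 and -0.06 and -0.01 for Ftl1 in Epcam+ cells and fibroblasts, none of which passed.

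EVs raised both ferritin chains in fibroblasts. Fth1 read 2939, 3249, 3402 and 3569 CPM with vehicle and 4594, 7035, 4997 and 9121 CPM with EVs, a log2 fold change of 0.94 (SE 0.14, adjusted p = 0.00199). Ftl1 read 1964, 2026, 2164 and 2233 CPM with vehicle and 2241, 3628, 3195 and 5015 CPM with EVs, a log2 fold change of 0.72 (SE 0.15, adjusted p = 0.00519). Neither pair of groups overlapped, where 23.5% of all genes tested did not overlap. For both ferritin genes mice 2 and 4 stood highest, the libraries with the strongest length trend. With the length trend taken out, Fth1 was 0.33 (SE 0.07, adjusted p = 0.00386) and Ftl1 was 0.12 (SE 0.08, adjusted p = 0.295). Without the EV-treated libraries of mice 2 and 4, Fth1 was 0.55 (adjusted p = 0.00038) and Ftl1 0.35 (adjusted p = 0.0424). Without mouse 2 none of the 6 EV calls among the members remained (0.88, adjusted p = 0.0564, for Fth1), and 19 genes of 11710 were called in all. In Epcam+ cells EVs gave 0.22 for Fth1 (adjusted p = 0.284) and -0.05 for Ftl1 (adjusted p = 0.931). Without mouse 4 epithelial Fth1 was called, at 0.32 (adjusted p = 0.023).

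The EV change of ferritin differed between the populations by the interaction test, by 0.70 for Fth1 (SE 0.17, adjusted p = 0.0074) and 0.75 for Ftl1 (SE 0.19, adjusted p = 0.00858). These were 2 of 10 members where 23.8% of 11805 genes were called. With the length trend taken out the differences were -0.01 (adjusted p = 0.959) and 0.07 (adjusted p = 0.76). No member passed the interaction test for OGN (0.551% of all genes called, 813 with an unadjusted p under 0.05). None passed it for SFs (0% called, 590 with an unadjusted p under 0.05). DESeq2 called 1 member for OGN (144 genes in all) and 0 for SFs (2 genes in all).

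**Figure D4:**
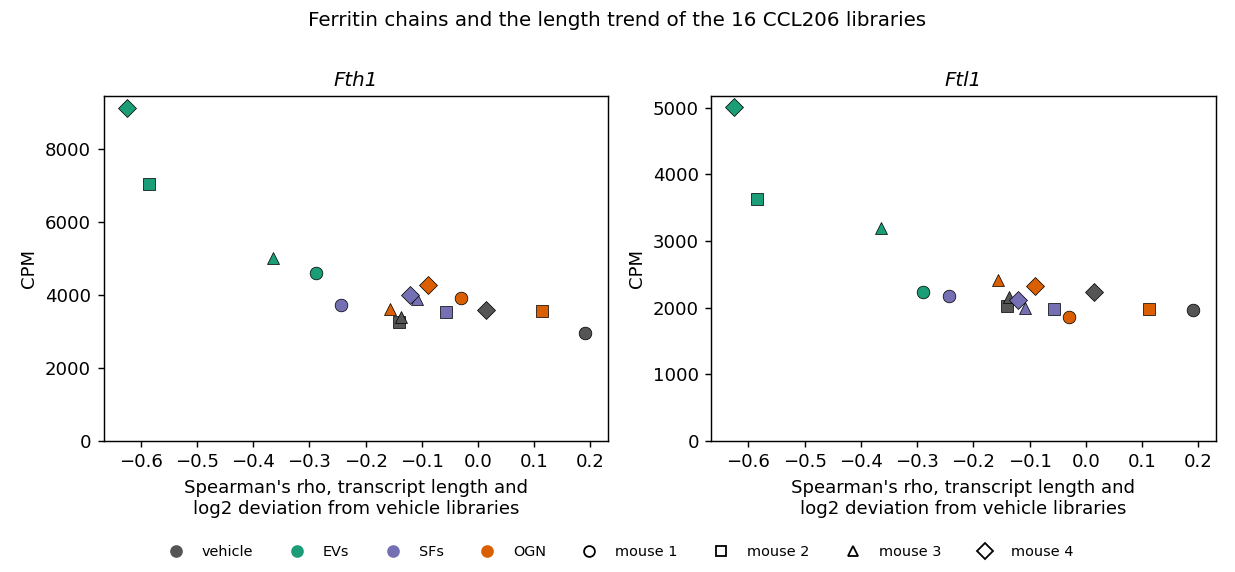
Fth1 and Ftl1 in CPM (vertical axes, from 0) in the 16 CCL206 libraries, against Spearman's rho across genes between transcript length and the log2 deviation of a library from the vehicle-treated libraries (horizontal axis). Colours mark the treatment and symbols the mouse. The EV-treated libraries lie at rho of -0.289 to -0.625, and those of mice 2 and 4 hold the highest Fth1 (7035 and 9121 CPM) and Ftl1 (3628 and 5015 CPM).

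Hmox1, which frees iron from heme, read 200, 192, 201 and 209 CPM with vehicle and 250, 248, 255 and 255 CPM with OGN in fibroblasts. All 4 OGN values were higher and the groups were tight, but the log2 fold change of 0.33 (SE 0.09) had an adjusted p of 0.0556. In fits without the EV-treated libraries the same value had an adjusted p of 0.000268. Hmox1 in Epcam+ cells gave 0.09 with OGN, 0.11 with EVs and 0.16 with SFs, with a lowest adjusted p of 0.759. In fibroblasts EVs gave 0.22 (adjusted p = 0.0765) and SFs 0.06.

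Ireb2 and Aco1, the regulators, passed no test with OGN. Ireb2 read 98.5 to 117 CPM with vehicle and 97.7 to 109 CPM with OGN in Epcam+ cells, and Aco1 read 154 to 176 and 142 to 154 CPM, with log2 fold changes of -0.06 and -0.13. In fibroblasts OGN gave 0.19 for Ireb2 (adjusted p = 0.613) and 0.15 for Aco1 (adjusted p = 0.452), both higher in 4 of 4 mice with overlapping groups. Ireb2 fell with EVs in fibroblasts by 0.43 on the log2 scale (SE 0.15, adjusted p = 0.0353), from 113, 102, 120 and 122 CPM to 94.5, 71.5, 107 and 66.1 CPM. The lowest were again mice 2 and 4, and at 5873 nt Ireb2 is the longest transcript of the set. With the length trend taken out the value was -0.15 (adjusted p = 0.293), and without the EV-treated libraries of mice 2 and 4 it was -0.13 (adjusted p = 0.538). Aco1 gave -0.14 with EVs in fibroblasts (adjusted p = 0.229).

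Taken directly against each other, OGN and EVs differed in 3 members in Epcam+ cells (2.22% of all genes called) and in 8 in fibroblasts (37.6% called). In Epcam+ cells these were Cp, Slc11a2 and Slc40a1. In fibroblasts Cp, Slc11a2, Tfrc, Ireb2 and Aco1 were higher with OGN, and Fth1 (-0.72), Ftl1 (-0.69) and Slc40a1 (-0.53) were lower. With the length trend taken out, Fth1 was -0.10 (adjusted p = 0.264), Ftl1 was -0.09 (adjusted p = 0.417) and Aco1 was 0.13 (adjusted p = 0.277), so these 3 calls were lost, while Hmox1 was then called (0.46, adjusted p = 0.000804). Without mouse 2 only Cp and Slc11a2 were called, and 636 of 11710 genes in all. OGN and SFs differed in 2 members in Epcam+ cells (Cp and Trf, 1.91% called) and in 3 in fibroblasts (Cp, Trf and Slc11a2, 2.79% called). Without mouse 2 none of the 3 fibroblast calls against SFs was kept, with an adjusted p of 0.0812 for Cp, and 78 genes were called in all. These comparisons share their OGN-treated libraries.

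Within-library ratios were examined because they need no scaling between libraries, that of Tfrc to Fth1 and that of Fth1 to Ftl1, each over 3 treatments and both populations. None of the 12 tests passed after adjustment (exact permutation test, two-sided, over 70 regroupings of 4 against 4 libraries, smallest possible p 0.0286). With that smallest p, a test could pass only if most of the 12 reached it, so these tests do not decide whether a ratio changed. They also leave out the pairing by mouse, and an exact test on the 4 within-mouse differences can give no p below 0.125. The log2 ratio of Fth1 to Ftl1 in Epcam+ cells was -0.73, -0.52, -0.57 and -0.52 with vehicle and -0.35, -0.25, -0.36 and -0.37 with OGN. The groups did not overlap, and the difference of 0.25 had an exact p of 0.0286 (adjusted p = 0.114). EVs in Epcam+ cells (0.28) and SFs in fibroblasts (0.23) gave the same exact p of 0.0286 (adjusted p = 0.114). The heavy chain thus read higher against the light chain in these libraries, in 4 of 4 mice each. The ratio of Tfrc to Fth1 with EVs in fibroblasts was lower by 1.22 in log2 (exact p = 0.0571, adjusted p = 0.171), and its other 5 tests had differences between -0.36 and 0.08. In fibroblasts of mice 1 to 4 this log2 ratio was -5.65, -7.27, -6.17 and -7.43 with EVs and -4.75, -5.55, -5.40 and -5.94 with vehicle. Such a ratio does not remove a length trend, and it sets a transcript of 4895 nt against one of 929 nt. The part of the length trend of the EV-treated libraries in it was not tested.

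Other genes of iron handling were counted from wider lists. Of 23 further genes of iron transport and regulation with a row (32 listed), OGN raised 3 and lowered none in Epcam+ cells, and raised 1 and lowered 2 in fibroblasts, where 2.7% and 4.56% of all genes were called. The median log2 fold change of the list was 0.01 in Epcam+ cells and 0.07 in fibroblasts, against 0.00 and -0.01 over all genes. The metalloreductase Steap4, which reduces ferric iron before transport, stood first in both. It read 10.3, 5.47, 13.5 and 7.81 CPM with vehicle and 26.8, 27.8, 31.5 and 23.4 CPM with OGN in Epcam+ cells, and 5.18, 5.14, 5.4 and 9.4 against 31.5, 29.5, 29.7 and 35.8 CPM in fibroblasts. The groups did not overlap in either population, with log2 fold changes of 1.53 (SE 0.21, adjusted p = 8.3e-05) and 2.35 (SE 0.22, adjusted p = 7.7e-06). The metal importers Slc39a8 (0.30, adjusted p = 0.0286) and Slc39a14 (0.50, adjusted p = 0.0295) also rose in Epcam+ cells. In fibroblasts Scara5, a receptor reported to bind ferritin, fell by 1.61 on the log2 scale (adjusted p = 0.000115). It read 18.3, 24.6, 18.5 and 22.4 CPM with vehicle and 6.12, 8.27, 7.21 and 5.53 CPM with OGN, without overlap. Cyb561a3, a lysosomal ferrireductase, fell by 0.56 (adjusted p = 0.00479).

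Genes around the iron pools gave few calls with OGN. Of the heme-handling genes (16 tested in Epcam+ cells, 17 in fibroblasts), 27 of iron-sulfur cluster assembly and 20 of the vacuolar H+-ATPase, which acidifies the endosome so that transferrin releases its iron, none was called with OGN by edgeR in either population. At an unadjusted p under 0.05 the counts were 1, 3 and 1 in Epcam+ cells and 1, 0 and 5 in fibroblasts. List medians lay between 0.00 and 0.02 in Epcam+ cells, and in fibroblasts they were 0.03, -0.01 and 0.18, the last for the V-ATPase, of whose 20 genes 18 lay above 0. Of 12 further NRF2 targets, genes of the oxidant response that is also known to drive ferritin and Hmox1, OGN changed 2 in each population, against 2.7% of all genes in Epcam+ cells and 4.56% in fibroblasts. Slc7a11, the cystine importer that feeds glutathione synthesis, rose by 0.94 in Epcam+ cells (SE 0.08, adjusted p = 6.9e-08) and by 1.65 in fibroblasts (SE 0.18, adjusted p = 2.0e-05). Its CPM were 135, 111, 143 and 115 with vehicle and 260, 230, 252 and 222 with OGN in Epcam+ cells, with no overlap. Nqo1 fell in Epcam+ cells (-0.57, adjusted p = 0.0373) and Gclc rose in fibroblasts (0.50, adjusted p = 0.0273). With EVs in fibroblasts 11 iron-sulfur genes were called higher and 1 lower, 8 V-ATPase genes higher and 1 lower, and 7 heme genes higher and 2 lower, where 36% of all genes were called and the length trend was present.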

How the data were processed

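The Epcam+ and CCL206 fractions of the cultures were sequenced for the authors, reads were trimmed with Trimmomatic (version 0.30 per the labels) and counted per gene. The authors deposited raw counts, not normalized, in 1 table of 11818 genes and 32 columns, all used. The labels name GRCm39 and the study's methods name GRCm38, and positions play no part in the counts. The aligner and counting program are not given in the sources used here. The labels also name DESeq2 (version 1.34.0), which made no value used here.

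Groups and mouse numbers were taken from the sample labels. The 10 genes, the wider lists and the marker lists were chosen with earlier results of these data known. Genes were filtered with filterByExpr, scaled by TMM and tested with edgeR's quasi-likelihood F test (version 4.0.16, R version 4.3.3), fitted to the 16 libraries of each population with terms for mouse and treatment. P was adjusted by Benjamini-Hochberg over all genes tested, 11716 in Epcam+ cells and 11689 in fibroblasts. The interaction was fitted over 32 libraries with a mouse term in each population, and the populations were compared over the 8 vehicle-treated libraries. The SE was derived from the fold change and its F statistic, and intervals are normal approximations from that SE. The 10 genes were all named. From the wider lists at most the 3 genes with the smallest p in a list and comparison were named, if called.

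Mice pair the libraries, since a number is 1 animal. Residuals of libraries of the same mouse correlated with a mean r of 0.139 in Epcam+ cells and 0.113 in fibroblasts, against -0.0412 and -0.0376 for other mice. None of the 48 pairs of replicates agreed within sampling noise (chi-square of 3.01 or more per degree of freedom). Depth was between 1805914 and 17675454 counts, and the lowest count of a member in a library was 9. On simulated data with 2-fold changes, 167 of 200 changed genes were recovered for OGN in Epcam+ cells (13 others called of 11679) and 174 of 199 in fibroblasts (10 others of 11650). Transcript lengths came from GENCODE vM39 canonical transcripts for 98.9% of genes, 74 genes by an older symbol. Alternatives were the model without mouse, DESeq2 (version 1.42.0), other size factors and filters, only the libraries compared, each mouse left out, the EV-treated libraries left out and a length-trend offset. Other-population markers as a covariate and the removal of a marker share were added after the data had been seen.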

Additional observations from a re-analysis of the deposited data

Results flagged for a closer look

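The EV-related change of the ferritin chains differed between fibroblasts and Epcam+ cells by the interaction test, by 0.70 in log2 for Fth1 (SE 0.17, adjusted p = 0.0074) and by 0.75 for Ftl1 (SE 0.19, adjusted p = 0.00858), both higher in fibroblasts. Values with the length trend taken out are given beside the result.

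In 3 of 80 groups of 4 libraries, 1 library of a member stood farther from its nearest neighbour than Dixon's 95% limit allows, where about 4 would by chance at 1 in 20 groups. These were Fth1 in Epcam+ cells of mouse 4 with vehicle (1959 CPM, the other mice 1424 to 1508), Fth1 in Epcam+ cells of mouse 4 with OGN (2000 CPM, the others 1643 to 1702), and Hmox1 in fibroblasts of mouse 3 with SFs (222 CPM, the others 204 to 207).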

How the results depend on the processing

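Of the 140 pairs of a member and a comparison, 41 were called, 59 were called under at least 1 setting and 81 under none. Of 383 alternative values of the called pairs, 302 kept the call, 80 lost it and 1 turned sign, and of 186 values of pairs not called 41 passed. Turned signs were Fth1 in the interaction with EVs (-0.01 with the length trend taken out) and Cp with EVs in Epcam+ cells (-0.36 less the fibroblast-marker share, a value without a test). That share was computed from CCL206 libraries that held the length trend.

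Counts of members called that moved by more than 1.5 times were as follows, against the counts in the report. In the model without the replicate block they were 0 for EVs and 1 for OGN against SFs, both in Epcam+ cells, and the block changed no other count by that much. With DESeq2 they were 1 for SFs in each population and 1 for the interaction with OGN. With the length trend taken out they were 2 for EVs in Epcam+ cells, 1 for SFs and 5 for OGN against SFs in fibroblasts, and 1 and 0 for the interactions with OGN and EVs. With only the 8 libraries compared they were 2 for OGN, 0 for EVs and 1 for SFs in Epcam+ cells, and 1 for EVs and 3 for SFs in fibroblasts. With only the 16 libraries compared the interactions gave 1 with OGN and 0 with EVs. Without the EV-treated libraries fibroblasts gave 7 for OGN and 1 for SFs, and without those of mice 2 and 4 alone they gave 7 for OGN, 3 for EVs and 1 for SFs. With the covariate of other-population markers EVs gave 0 in Epcam+ cells and 3 in fibroblasts, and SFs gave 1 in fibroblasts.

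With each mouse left out in turn, Epcam+ cells gave 2 to 3 members for OGN (2 without mouse 3 or mouse 4). In these fits 144 to 268 genes were called in all. EVs gave 0 to 2 members there (17 to 156 genes), OGN against EVs 1 to 3 (132 to 191) and OGN against SFs 1 to 2 (72 to 136). Fibroblasts gave 2 to 5 for OGN (2 without mouse 2), where 236 to 411 genes were called. For EVs they gave 0 to 4 (0 without mouse 2, 3 without mouse 4), where 19 to 4556 genes were called. For OGN against EVs they gave 2 to 8 (636 to 4821 genes) and for OGN against SFs 0 to 3 (78 to 231). The interaction with EVs gave 0 to 3 (1 without mouse 2, 0 without mouse 4), where 261 to 2976 genes were called. The cause was not tested. The alternative with at least 10 counts in every library gave no value for Slc40a1 in Epcam+ cells, where 1 library held 9 counts. Depth limits Slc40a1 in Epcam+ cells most, and p-values cover the spread between these 4 mice, with 1 fibroblast line.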

Other observations

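Apart from treatment, the oxidant-response genes that share regulators with ferritin and Hmox1 were distributed unlike Fth1 and Hmox1 between the populations. Ftl1 differed by 0.17 towards Epcam+ cells and did not pass the test (adjusted p = 0.0521). With vehicle, all 12 NRF2 targets outside the iron genes were called higher in Epcam+ cells (median log2 difference 1.25, against 0.00 over all genes), led by Gsr (2.07), Slc7a11 (2.18) and Me1 (1.51), whereas Hmox1 (-0.86) and Fth1 (-1.06) were higher in fibroblasts. Of 23 further genes of iron transport and regulation, 16 were called lower and 3 higher in Epcam+ cells, among them the scavenger receptor Lrp1 (-2.35), Steap2 (-1.86) and Steap3 (-2.55), and of 27 genes of iron-sulfur cluster assembly 15 were called higher and 2 lower. Across all genes tested, 71.4% were called in this comparison.

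The iron-sulfur assembly genes also moved with EVs in fibroblasts, with a median log2 fold change of 0.38 over 27 genes (24 above 0) against -0.01 over all genes. Glrx5 (0.99), Bola2 (1.27) and Nubp1 (0.59) had the smallest p. These values come from the fit in which the length trend of the EV-treated libraries was kept, and its part in them was not tested.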
